A study of Mus musculus with 12 samples.

Results

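Peaks on DNA transposons were the 573 accessible regions of the master peak-list that HOMER, which looked up the repeat at each peak, annotated to a repeat of the DNA class. They were 0.680% of the 84243 master peaks (95% Wilson interval 0.627 to 0.738%) and 4.50% of the 12746 master peaks annotated to any repeat. The list came from ATAC-seq, in which a transposase inserts sequencing adapters into open chromatin, of 6 blood cell types sorted from wild-type C57BL/6 mice aged 8 to 12 weeks, with 2 replicates each, or 12 samples. Thymus gave the T cells. Bone marrow gave the B cells, the granulocyte/macrophages, the progenitors of the erythroid (EP) and megakaryocyte (MkP) lineages and the hematopoietic stem cells (HSCs). All cell types were merged into 1 list that holds 0 columns of values per sample, so a peak was open in at least 1 cell type, the cell type is not known, and an error between replicates cannot be given. The depth behind each peak is unknown, and intervals below cover counting error only. All peaks were 499 bp wide, and positions are in mm10, which is GRCm38.

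DNA transposons move by cut and paste. An autonomous copy encodes a transposase that recognises the terminal inverted repeats at the ends of the element, excises it and inserts it elsewhere, and short non-autonomous copies without a transposase gene are moved in the same way by the enzyme of a relative. The copies in mammalian genomes are mostly old fossils that no longer move, and most belong to the hAT superfamily, with the Charlie, Tip100 and Blackjack families, or to the Tc1/mariner superfamily, with the Tigger families. Accessible copies of transposons can hold binding sites for transcription factors that were present in the inserted element or arose in it later.

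The hAT superfamily made up most of these peaks. Families of hAT held 415 of the 573 (72.4%) and Tc1/mariner families held 152 (26.5%). Families that the annotation marks as uncertain with a question mark held 6 of the 573, and those of hAT and Tc1/mariner are counted above. The hAT-Charlie family alone had 340 peaks (59.3%, interval 55.3 to 63.3%) in 46 subfamilies. TcMar-Tigger, the pogo-like elements, followed with 136 peaks (23.7%) in 30 subfamilies, and hAT-Tip100 had 56 (9.77%) in 17. The remaining 41 peaks were spread over the 10 smaller families, of which hAT-Blackjack with 15 and TcMar-Tc2 with 10 were the most frequent.

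Among the 118 subfamilies, 7 had 20 or more peaks and together held 224 (39.1%), while 50 subfamilies had a single peak. MER20, a short non-autonomous hAT-Charlie element, was the most frequent with 80 peaks. The rodent element URR1B had 30, MER5A 25, Tigger7 24, RCHARR1 23, and Charlie1a and the rodent element URR1A 21 each. All of these are hAT-Charlie subfamilies except Tigger7. How many copies each subfamily has in the genome was not counted here, so the numbers give how often a subfamily is found in the list and not how often its copies are open.

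**Figure D1:**
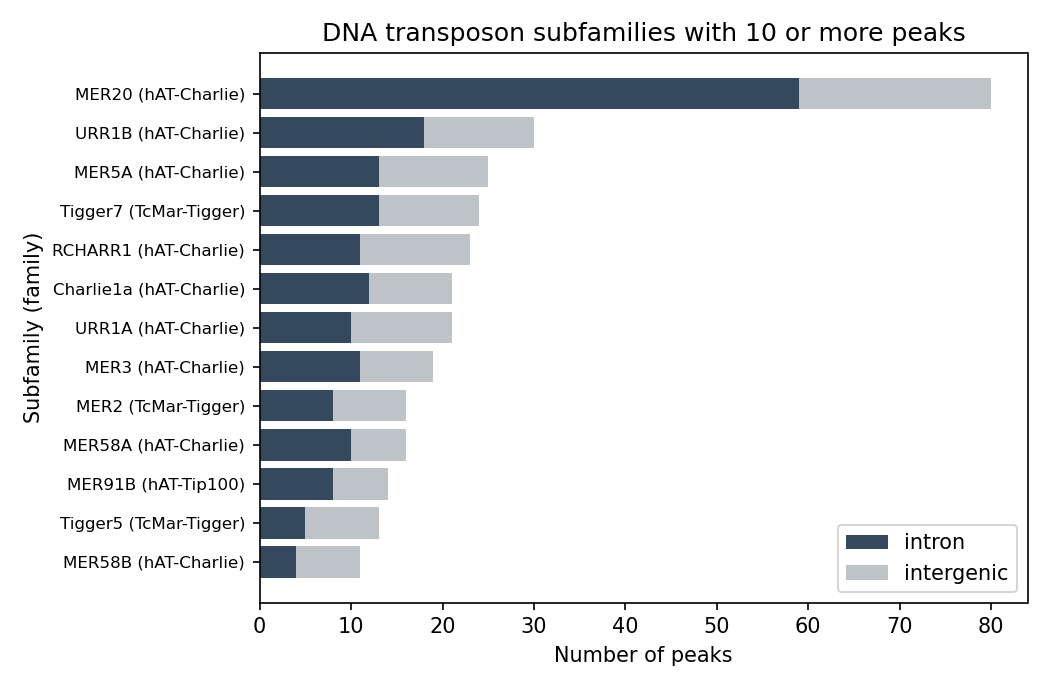
Bars give the number of peaks on the x axis for each subfamily with at least 10 peaks, split into intron (dark) and intergenic (light). MER20, with 80 peaks of which 59 are in introns, stands far above URR1B with 30.

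Members of a subfamily descend from the same element, and the words that their sequences share are described here. For each subfamily of 20 or more, the 8-letter word shared by most peaks relative to all master peaks was found on either strand. MER20 peaks held CCACTAGA in 33 of 80 (41.2%), against 2.60% of all master peaks and 9 of the 493 other DNA transposon peaks. TCACCACA was in 19 of 30 URR1B peaks (63.3%), against 3.43% of the list, and the word ATGCAAAT, which is also the octamer that POU factors bind, was in 9 of 25 MER5A peaks (36.0%), against 3.37%. URR1A peaks shared CATATCAG in 13 of 21 (61.9%), against 1.16%. URR1A and URR1B have related names, and AGTAGCAA was held by 30 of their 51 peaks (58.8%, interval 45.2 to 71.2%) and by 12 of the 522 others. RCHARR1 shared TCTGAACA in 9 of 23 (39.1%), against 2.53%. The words of Tigger7 (TAAAATAA, 6 of 24) and Charlie1a (AAGAAAAT, 7 of 21) were less shared and rich in A. These words were chosen as the most shared, so the shares describe the subfamilies, test nothing and do not check the annotation.

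The 4 peaks of MER20 with the word nearest to the peak centre show what the copies have in common. The word is in capitals in 58 bp of GRCm38, read 5′ to 3′ on the strand given, and each line starts with the nearest gene.
Zfp622, chr15:25995678-25995735, plus strand: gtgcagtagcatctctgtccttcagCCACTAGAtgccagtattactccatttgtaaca
Tnrc18, chr5:142768118-142768175, plus strand: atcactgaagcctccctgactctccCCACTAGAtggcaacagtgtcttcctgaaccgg
Scp2d1, chr2:144724845-144724902, plus strand: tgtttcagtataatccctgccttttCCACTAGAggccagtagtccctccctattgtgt
Nphp4, chr4:152520185-152520242, plus strand: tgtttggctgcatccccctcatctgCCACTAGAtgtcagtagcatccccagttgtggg
The letters CAGTA follow the word at the same distance in 3 of the 4 windows.

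For URR1B, Itga2 encodes the integrin alpha 2 subunit CD49b, a collagen receptor of platelets, and C5ar2 encodes a receptor for complement C5a. The 4 windows are drawn in the same way, with the URR1B word in capitals.
C5ar2, chr7:16250917-16250974, minus strand: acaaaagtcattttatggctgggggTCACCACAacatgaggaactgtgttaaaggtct
Mrln, chr10:70195723-70195780, plus strand: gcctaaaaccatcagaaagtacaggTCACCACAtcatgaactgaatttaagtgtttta
Itga2, chr13:114924788-114924845, plus strand: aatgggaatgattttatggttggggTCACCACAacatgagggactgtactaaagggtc
Rbm46, chr3:82808567-82808624, minus strand: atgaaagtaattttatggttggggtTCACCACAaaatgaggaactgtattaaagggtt
The letters TTTTATGG stand before the word in 3 of the 4 windows, at C5ar2, Itga2 and Rbm46.

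The MER5A windows, with the octamer in capitals, follow. S1pr1 encodes a sphingosine 1-phosphate receptor that lymphocytes use to leave lymphoid organs. It is named only as the nearest gene, and its transcription start site was 71944 bp from the peak centre.
Utp6, chr11:79860731-79860788, plus strand: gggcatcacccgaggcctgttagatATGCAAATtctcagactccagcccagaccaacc
Grhl3, chr4:135569472-135569529, minus strand: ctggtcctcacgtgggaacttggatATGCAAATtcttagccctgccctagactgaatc
1700016H13Rik, chr5:103699714-103699771, minus strand: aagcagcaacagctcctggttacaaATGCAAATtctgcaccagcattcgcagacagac
S1pr1, chr3:115643071-115643128, minus strand: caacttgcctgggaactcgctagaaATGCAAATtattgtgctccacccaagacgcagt
Each octamer is followed by T, and 3 of the 4 by TCT.

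Peaks on DNA transposons lay inside genes about as often as between them. Of the 573 peaks, 294 were in introns (51.3%, interval 47.2 to 55.4%) and 279 were intergenic. HOMER names a repeat only for intron and intergenic peaks, so other classes were not possible. Comparisons were made with 849 peaks on MIR and L2 repeats, which are also ancient, with 10678 peaks on all other LINE, SINE and LTR repeats, and with 53111 intron and intergenic peaks outside repeats and more than 500 bp from a transcription start site (TSS). The intron share was 6.04 percentage points above that of other LINE, SINE and LTR repeats (95% Newcombe interval 1.84 to 10.2 points). Against MIR and L2 repeats it differed by -4.17 points (-9.43 to 1.11) and against peaks outside repeats by -1.96 points (-6.07 to 2.13), and both intervals include 0.

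MER20 peaks were in introns more often than the other DNA transposon peaks. In this subfamily 59 of 80 peaks were intronic (73.8%, interval 63.2 to 82.1%), against 47.7% of all other DNA transposon peaks, a difference of 26.1 points (14.6 to 35.5). Without MER20, the difference from other LINE, SINE and LTR repeats was 2.40 points (-2.08 to 6.91), and that from MIR and L2 repeats was -7.81 points (-13.3 to -2.27), so which of the comparison sets differed turned on this subfamily. In the 3 largest families, the intron share ran from 56.2% in hAT-Charlie (50.9 to 61.4%) and 50.0% in TcMar-Tigger (41.7 to 58.3%) to 30.4% in hAT-Tip100 (17 of 56, 19.9 to 43.3%). The hAT-Tip100 interval lies below that of hAT-Charlie.

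The peaks were mostly distal. The median distance from a peak centre to the nearest TSS was 25251 bp, with quartiles at 10863 and 61232 bp, and medians were 24137 bp on MIR and L2 repeats, 23708 bp on other repeats and 24347 bp outside repeats. More than 10 kb from a TSS were 76.3% of the DNA transposon peaks, which differed from the 3 sets by 0.483 to 3.94 points with intervals that all include 0. Of the 573, 75 (13.1%) were over 100 kb away. Within 2 kb of a TSS were 17 peaks and within 1 kb was 1, counts that the annotation limits, since HOMER gives peaks at promoters no repeat name. Among the 7 subfamilies with 20 or more peaks, median distances ran from 14698 bp for Charlie1a to 44020 bp for MER5A, with 26951 bp for MER20. The peaks lay downstream of the nearest TSS in 342 cases (59.7%), and the nearest gene was protein coding in 481 (83.9%), against 83.7% outside repeats.

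**Figure D2:**
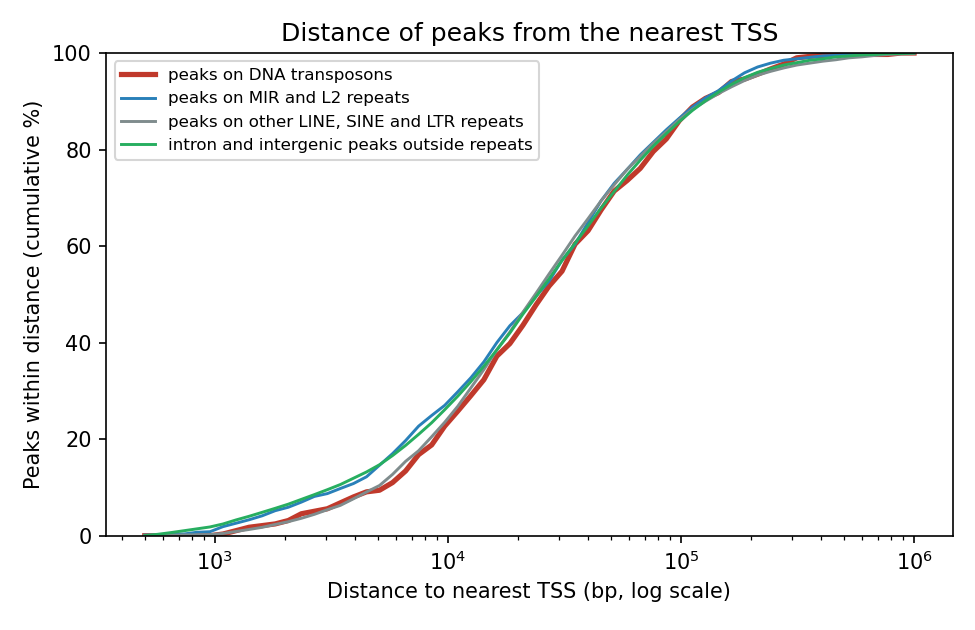
Each line gives the cumulative percent of peaks (y axis) within a distance of the nearest TSS (x axis, log scale) for 1 class of peak. The 4 lines nearly coincide beyond 10 kb, and their medians lie between 23708 and 25251 bp.

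MER20, with 80 of the 573 peaks, recurred both among the nearest and among the farthest from a TSS. Its median distance was 26951 bp, against 25251 bp for all members. Of the 10 peaks closest to a TSS, 5 were MER20, led by the peak in intron 1 of Prmt9 (protein arginine methyltransferase 9; chr8:77550118-77550616), centred 970 bp downstream of the TSS. The others were in intron 1 of Zfp663 at 1059 bp, at Mxi1, which encodes a MAX partner that opposes MYC, at 1143 bp upstream, in Cox6a1 at 1182 bp and in intron 1 of Zfp786 at 1361 bp. Charlie1a lay 1285 bp upstream of Aff1, a partner of MLL in leukemia fusions. At the far end, MER20 peaks lay 823984 bp from B230303A05Rik and 773904 bp from Cdh12, which encodes a cadherin. A MER63A peak lay 430398 bp downstream of its nearest TSS, that of Maf, a bZIP factor gene. It was annotated to intron 8 of 8, and which gene holds that intron was not checked.

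DNA transposon peaks were less crowded than peaks on MIR and L2 repeats. Another master peak centre was within 10 kb of 71.9% of them, against 80.4% for MIR and L2, a difference of -8.55 points (-13.1 to -4.04), while the differences from other repeats (1.55 points, -2.36 to 5.18) and from peaks outside repeats (-2.04 points, -5.87 to 1.51) included 0. Their median distance to the nearest other peak was 5130 bp, against 3760 bp on MIR and L2 repeats. Among themselves the 573 peaks were scattered. They had 551 nearest genes, of which 21 had 2 peaks and 0 had 3 or more. Centres were within 10 kb of each other in 3 neighbouring pairs, which were at Sdc1, 4930579P08Rik and Itga2 and are named after their values were seen. At Sdc1, which encodes the plasma cell marker CD138, both peaks were Tigger1 and lay 1877 bp apart, and at Itga2 a MER20 and a URR1B peak were 8836 bp apart. Among the autosomes, shares of all master peaks ran from 0.340% on chromosome 9 to 0.979% on chromosome 19. On X the share was 0.929% (17 of 1829 master peaks), and Y had 0 of only 11, too few to read.

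The peaks were searched for 10 motifs of factors that act in blood cells, as exact strings on both strands of the whole peak. The string for GATA factors was AGATAA and that for ETS factors was AGGAAG. RUNX factors were searched as TGTGGTT and C/EBP factors as TTGCNNAA, where N is any letter. AP-1 was searched as TGANTCA, PU.1 as GAGGAAGT and TCF as CTTTGAT. The E-boxes were CAGCTG and, separately, CAGGTG. CTCF was searched by its 11-letter consensus. The PU.1 string contains the ETS string, so those shares overlap. Against each comparison set, 5 of the 10 shares differed with an interval that left out 0. With 30 such intervals and no adjustment for their number, single intervals that end near 0 carry little weight. A match is a string in the peak and does not show binding. The ends of the elements within the peaks were not located, so a match can lie in DNA beside the element. Of the 328 members with the ETS string, 213 had it in the central 200 bp, and of the 163 with the GATA string, 69 did. Peaks called outside repeats were given no repeat name and may still hold part of a repeat.

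CTCF is the zinc-finger protein that anchors chromatin loops and insulators. Its exact consensus was more frequent in peaks on DNA transposons than in peaks on other repeats. Against other LINE, SINE and LTR repeats this did not hold when 1 mismatch was allowed. The exact consensus was in 48 of 573 peaks (8.38%, interval 6.38 to 10.9%). This was 5.43 points above MIR and L2 repeats at 2.94% (3.01 to 8.16 points) and 3.43 points above other LINE, SINE and LTR repeats at 4.94% (1.39 to 6.02 points). Peaks outside repeats had it in 9.52%, a difference of -1.14 points (-3.16 to 1.43). In the whole master list, promoters included, the share was 7.68%.

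The consensus was concentrated in MER20 and MER91B. It was in 20 of 80 MER20 peaks (25.0%, interval 16.8 to 35.5%) and 8 of 14 peaks on MER91B, a hAT-Tip100 element (57.1%, 32.6 to 78.6%). MER91B is named after its values were seen, and both were singled out for their counts. MER20 exceeded the other DNA transposon peaks by 19.3 points (10.8 to 29.9) and MER91B did so by 50.0 points (25.3 to 71.5). Against peaks outside repeats the differences were 15.5 points (7.28 to 26.0) and 47.6 points (23.1 to 69.1). The remaining 479 DNA transposon peaks had the consensus in 20 cases (4.18%, 2.72 to 6.36%), and their share was 1.23 points above that of MIR and L2 repeats (-0.766 to 3.61), -0.769 points (-2.29 to 1.45) from that of other repeats and -5.34 points (-6.82 to -3.14) from that of peaks outside repeats. So 28 of the 48 peaks (58.3%) came from 94 peaks of 2 subfamilies, and without them the intervals of the differences from both sets of repeats included 0. Taking out the subfamilies with the highest counts lowers the share by construction. Nothing was taken out of the comparison sets, so the differences without MER20 and MER91B describe the remaining peaks and test nothing. MER20B, close to MER20 in name, had 2 of 7 and Tigger16a 2 of 4, 16 subfamilies had 1 peak each, and Charlie1a had 0 of 21, which allows up to 14.3% by the limit of 3 counts in the total. With 1 mismatch allowed, 50 of 80 MER20 (62.5%) and 13 of 14 MER91B (92.9%) had a match, against 26.7% of all DNA transposon peaks, 17.7% on MIR and L2 repeats, 30.2% on other LINE, SINE and LTR repeats and 30.4% outside repeats. The difference of all DNA transposon peaks from other repeats was then -3.52 points (-7.09 to 0.347), the reverse of the exact search, and that from MIR and L2 repeats was 9.03 points (4.64 to 13.5).

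The 6 MER20 sites nearest to a peak centre are shown because they carry this result. Capitals mark the 11 letters of the CTCF consensus within 61 bp of GRCm38.
Tnrc18, chr5:142768118-142768178, minus strand: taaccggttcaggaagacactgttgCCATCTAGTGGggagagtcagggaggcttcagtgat
Slc2a13, chr15:91477944-91478004, minus strand: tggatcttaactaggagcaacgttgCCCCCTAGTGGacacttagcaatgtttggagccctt
Car8, chr4:8005337-8005397, plus strand: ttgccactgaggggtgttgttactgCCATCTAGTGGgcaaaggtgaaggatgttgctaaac
Fndc9, chr11:46215528-46215588, plus strand: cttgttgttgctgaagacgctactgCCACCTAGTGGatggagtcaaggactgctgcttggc
Zc3h8, chr2:128948353-128948413, minus strand: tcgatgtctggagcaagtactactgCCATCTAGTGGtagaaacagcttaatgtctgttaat
Specc1, chr11:62044818-62044878, plus strand: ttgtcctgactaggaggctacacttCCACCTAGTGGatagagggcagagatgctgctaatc
Slc2a13, whose TSS was 95290 bp from the peak centre, encodes a proton-coupled myo-inositol transporter and Zc3h8 a zinc-finger protein. The Tnrc18 site is the one shown above for the shared word, read on the other strand.

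Of the MER91B sites, 7 of the 8 are shown in the same way. Blk encodes a kinase of the SRC family in B cells, Grip1 a scaffold protein that binds glutamate receptors, and Ccdc8 a protein needed for the assembly of the cullin 7 complex. They are named only as nearest genes, and the Blk peak was intergenic and 59028 bp from the TSS.
Grip1, chr10:119803804-119803864, minus strand: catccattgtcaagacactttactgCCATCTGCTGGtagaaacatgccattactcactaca
Ggt7, chr2:155482195-155482255, minus strand: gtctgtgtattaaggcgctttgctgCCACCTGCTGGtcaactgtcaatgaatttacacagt
Blk, chr14:63358150-63358210, minus strand: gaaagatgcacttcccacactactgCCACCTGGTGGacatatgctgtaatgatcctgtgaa
Gm3363, chr2:18756320-18756380, plus strand: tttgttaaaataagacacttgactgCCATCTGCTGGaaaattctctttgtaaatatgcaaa
Ccdc8, chr7:17007488-17007548, minus strand: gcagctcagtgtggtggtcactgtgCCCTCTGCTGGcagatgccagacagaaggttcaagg
Mir6991, chr19:7436436-7436496, plus strand: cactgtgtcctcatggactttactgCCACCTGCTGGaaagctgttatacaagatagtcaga
Zdhhc22, chr12:87000773-87000833, minus strand: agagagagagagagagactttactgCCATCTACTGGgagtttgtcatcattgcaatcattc
ACTG stands directly before the consensus in 5 of these 7 windows, where the MER20 windows have ACTG in 3 of 6.

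The 2 subfamilies used different versions of the consensus. MER20 sites had the form CCATCTAGTGG in 10 of 20 and CCACCTAGTGG in 6 of 20, and 19 of 20 ended in TAGTGG. The MER91B sites ended in TGCTGG in 6 of 8. In peaks outside repeats these endings were about equally common, at 32.1% for TAGTGG and 31.6% for TGCTGG. The word CCACTAGA shared in MER20 is the reverse complement of TCTAGTGG, the end of the most frequent MER20 form, and it overlaps the consensus: 11 of the 33 MER20 peaks with the word had the consensus, 9 had the consensus without the word, and 42 had either.

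Similarity between the sites reached past the consensus. Over 30 bp on each side, pairs of MER20 sites had the same letter at 34.3% of positions and pairs of MER91B sites at 33.5%, against 26.7% between the other DNA transposon peaks with the consensus and 27.1% outside repeats. In the nearest 6 bp the values were 50.3% and 48.5%, against 29.8% and 32.1%. The sites lay near the peak centres, as did those outside repeats. The median distance of the consensus from the centre was 13 bp in MER20 and 23 bp in MER91B, against 19 bp outside repeats, and 19 of 20 and 7 of 8 were within 50 bp, against 84.8% outside repeats and 84.0% on MIR and L2 repeats. In the other DNA transposon peaks 15 of 20 were within 50 bp, and the rest lay up to 227 bp away. Whether MER20 and MER91B copies outside peaks carry the consensus was not measured.

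**Figure D3:**
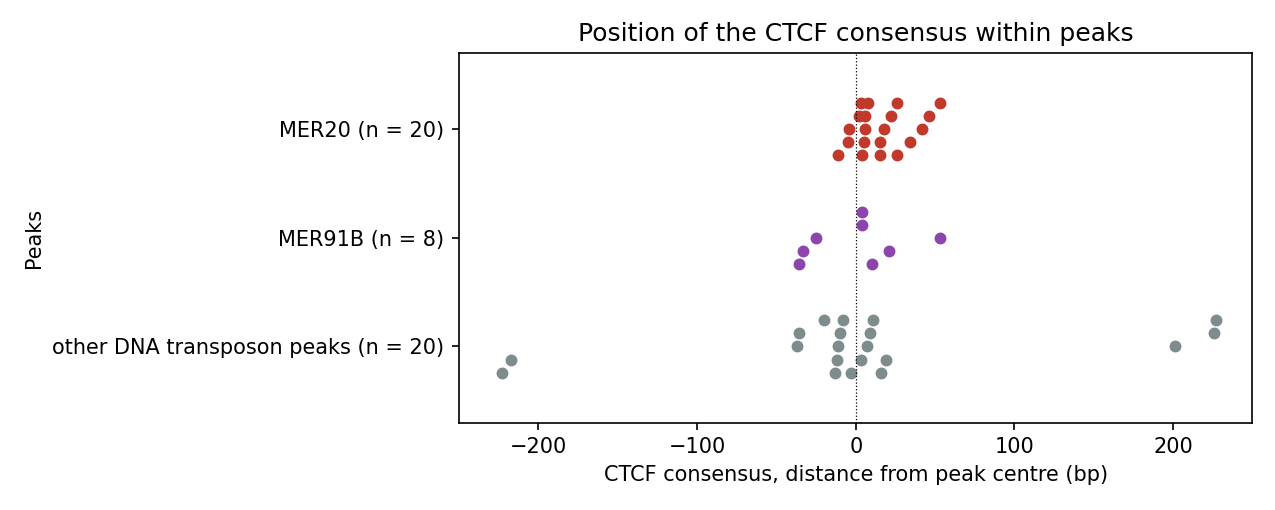
Each point is a DNA transposon peak with the CTCF consensus, placed on the x axis by the distance of the consensus from the peak centre in bp, with groups on the y axis and vertical spread for display only. The 20 MER20 and 8 MER91B sites all lie within 53 bp of the centre, and 5 of the 20 sites in other peaks lie farther than 50 bp.

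**Figure D4:**
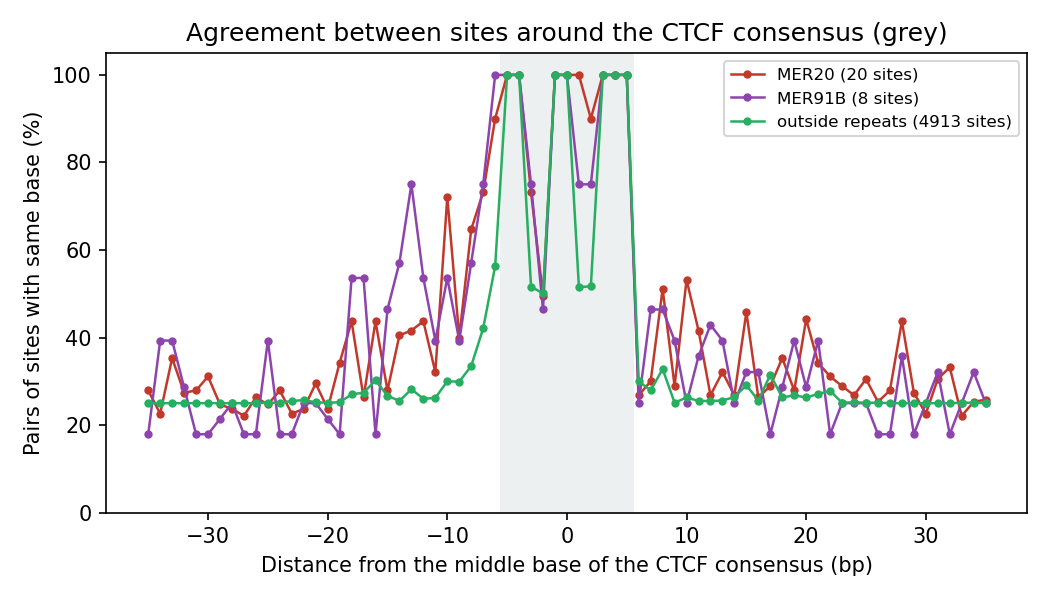
The y axis gives the percent of pairs of sites with the same letter at each distance (x axis, bp) from the middle of the CTCF consensus, marked in grey. Outside the grey, the MER20 and MER91B lines rise above the line for peaks outside repeats at some positions on both sides. At others they fall below it. MER20 reaches 72.1% at 10 bp before and 53.2% at 10 bp after the middle, against 30.0% and 26.3%. At 6 bp after the middle MER20 is at 26.8% and MER91B, with 8 sites, at 25.0%, against 30.0%.

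ETS strings, the core of the factors PU.1, ERG and FLI1, were less frequent in peaks on DNA transposons than in any comparison set. They were in 57.2% of peaks, against 72.8% on MIR and L2 repeats (-15.5 points, -20.6 to -10.5), 64.2% on other repeats (-6.96 points, -11.1 to -2.87) and 65.8% outside repeats (-8.51 points, -12.6 to -4.50). Without MER20 and MER91B the difference from other repeats was -4.29 points (-8.83 to 0.0990). It turned to 12.3 points, with an interval that included 0, in the 51 members whose centre is in lower case in the genome, 31 of them URR1A and URR1B. Among the subfamilies of DNA transposon peaks the share varied widely. URR1B had it in 25 of 30 peaks (83.3%), 27.5 points above the other members (10.1 to 37.8), while RCHARR1 had 7 of 23 (30.4%, -27.9 points, -43.3 to -7.08) and MER20 36 of 80 (45.0%, -14.2 points, -25.5 to -2.50). The longer PU.1 string was in 9.25% of all members, below MIR and L2 (13.3%) and other repeats (14.4%) with intervals that left out 0. Peaks outside repeats had it in 9.58%, a difference of -0.332 points (-2.46 to 2.33). URR1B had it in 7 of 30 peaks. Without MER20 and MER91B the PU.1 difference from MIR and L2 repeats was -2.66 points (-6.13 to 1.08). In the lower-case members it was 8.26 points, and 7.13 against other repeats.

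Strings for RUNX, C/EBP and AP-1 factors were more frequent than outside repeats, but each had an interval with 0 against MIR and L2 or other repeats. RUNX strings, bound by the factors RUNX1 and RUNX3, were in 22.7% of peaks, against 17.7% outside repeats (5.01 points, 1.75 to 8.62). Their difference was 4.31 points from MIR and L2 repeats (0.0657 to 8.68) and 0.736 points from other repeats (-2.60 to 4.42). AP-1 strings, the sites of FOS and JUN dimers, were in 21.3%, against 17.2% outside repeats (4.09 points, 0.914 to 7.64) and 16.9% on other repeats (4.35 points, 1.11 to 7.96). C/EBP strings were in 24.8%, against 21.3% outside repeats (3.51 points, 0.130 to 7.22) and 18.8% on other repeats (5.99 points, 2.54 to 9.75). From MIR and L2 repeats the differences were 0.915 points for AP-1 (-3.33 to 5.29) and -1.48 points for C/EBP (-6.03 to 3.18). The difference in C/EBP from peaks outside repeats was 1.05 points (-2.34 to 4.77) when those peaks were weighted to the GC content of the DNA transposon peaks, whose median was 45.1%, against 47.9%. In the central 200 bp alone, the differences from other repeats were 2.29 points for C/EBP (-0.0988 to 5.18) and 2.30 points for AP-1 (-0.125 to 5.23). AP-1 strings were in 10 of 25 MER5A peaks (40.0%), 19.6 points above the other members (2.58 to 39.1), and in 11 of 30 URR1B peaks. GATA strings were in 28.4% of peaks, and the differences from the 3 sets, -4.06, -1.02 and 1.47 points, all had intervals with 0. Against MIR and L2 repeats the GATA difference left out 0 with GC weighting (-9.39 points, -14.6 to -4.08) and in the central 200 bp (-7.39 points, -11.1 to -3.53). The E-box CAGGTG, bound by ZEB factors and E proteins, was in 27.9% and lower than on MIR and L2 repeats (-5.76 points, -10.5 to -0.851) and outside repeats (-5.13 points, -8.67 to -1.30), and MER20 had it in 11 of 80. Both differences had intervals with 0 under each alternative, at -0.686 and -1.08 points with GC weighting, -2.18 and -1.62 in the central 200 bp, -3.62 and -2.99 without MER20 and MER91B, and -10.2 and -9.53 in the lower-case members.

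**Figure D5:**
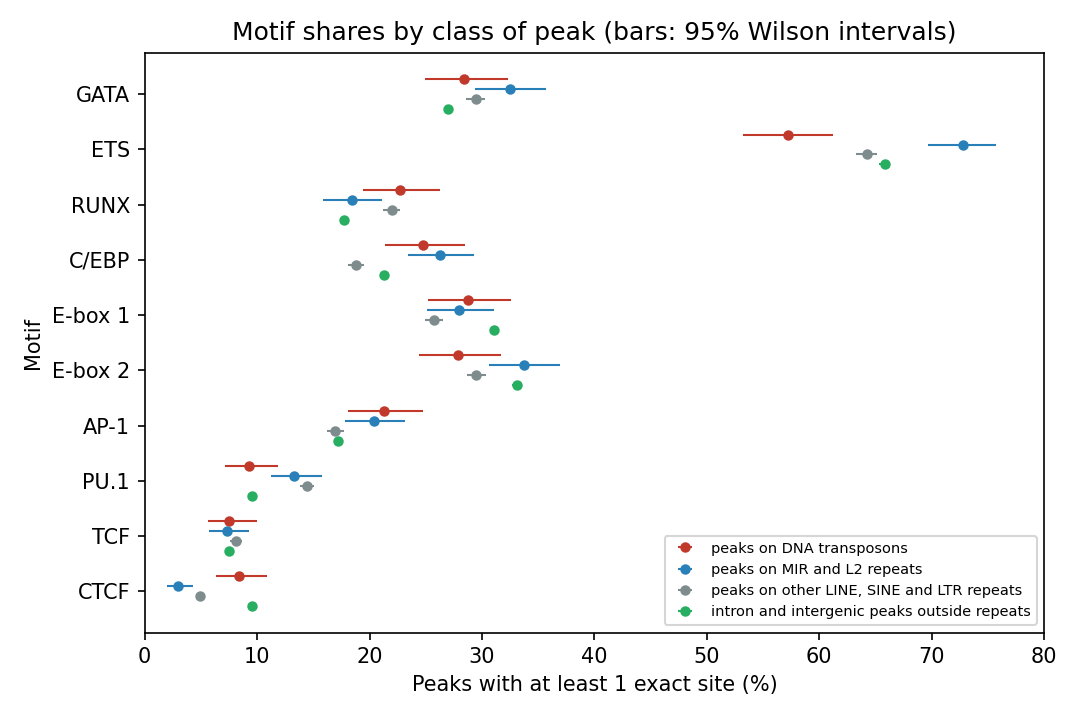
Points give the percent of peaks with at least 1 exact string of each motif (x axis) by class of peak, and bars give 95% Wilson intervals. E-box 1 is CAGCTG and E-box 2 is CAGGTG. DNA transposon peaks (red) are lowest for ETS at 57.2% and lie with peaks outside repeats (green) for CTCF.

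For genes of the blood lineages, the share of peaks on DNA transposons had a wide interval that included the rate of the whole list. In the 6 lineage lists, of 20 genes each, 6 of 960 master peaks were on DNA transposons (0.625%, interval 0.287 to 1.36%), against 0.680% of the whole list. Both totals include promoter peaks, to which HOMER gives no repeat name, and their promoter shares were not compared. Regulators of HSCs and progenitors had 2 of 275 peaks, at Cd34 and Lyl1. Erythroid genes had 1 of 139, at Tfrc, megakaryocyte and platelet genes 1 of 111, at Rab27b, B cell genes 1 of 200, at Irf8, and T cell genes 1 of 141, at Cd28. Granulocyte and macrophage genes had 0 of 94, which allows up to 3.19% by the same limit. Genes that are themselves derived from DNA transposons, such as the V(D)J recombinase gene Rag1, had 0 of 79, which allows up to 3.80% by that limit.

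Of these peaks, the central 100 bp are shown for the list member nearest to its TSS in 4 lists, with exact motif strings in capitals, on the plus strand of GRCm38.
Cd34, chr1:194946611-194946710, plus strand: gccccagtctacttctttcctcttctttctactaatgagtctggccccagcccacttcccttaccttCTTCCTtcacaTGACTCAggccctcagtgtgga
Tfrc, chr16:32597983-32598082, plus strand: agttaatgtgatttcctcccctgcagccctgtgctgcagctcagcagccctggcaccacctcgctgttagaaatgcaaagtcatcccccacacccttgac
Irf8, chr8:120779276-120779375, plus strand: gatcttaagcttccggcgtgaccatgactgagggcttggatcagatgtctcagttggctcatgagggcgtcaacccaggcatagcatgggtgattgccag
Cd28, chr1:60709457-60709556, plus strand: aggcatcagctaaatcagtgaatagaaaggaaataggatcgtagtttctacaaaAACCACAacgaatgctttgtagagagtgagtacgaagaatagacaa
Cd34, which encodes the sialomucin used as a marker of progenitors, had a MER115 peak in an intron 7840 bp downstream of its TSS, with an ETS and an AP-1 string 5 bp apart. Tfrc, the transferrin receptor gene, had a MER5A1 peak 10863 bp upstream. The Irf8 peak, on MER63A, was 40687 bp downstream of the TSS of this interferon regulatory factor gene. Cd28, which encodes a T cell costimulatory receptor, had a Tigger13a peak 36881 bp upstream, with a RUNX string. No string of the 10 was in the central 100 bp of the Tfrc and Irf8 peaks. Lyl1, a bHLH factor gene, had the nearest TSS to a MER20 peak, 24633 bp away. Rab27b, whose product acts in the secretion of platelet granules, had a Tigger17a peak 17099 bp downstream. Both peaks were annotated to an intron. For these and the Cd34 peak, which gene holds the intron was not checked.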

How the data were processed

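ATAC-seq was done on 12 samples of 6 sorted cell types. According to the methods, the authors ran the ENCODE ATAC-seq pipeline for mouse build mm10 and left out multimapping reads, which can remove signal from young repeats whose copies are alike. The optimal lists of the 6 cell types, chosen by Irreproducible Discovery Rate, were joined by the authors and reduced to peaks without overlap in chromVAR. Annotation was by HOMER (version 4.10.2 per the submitters' processing notes). The deposited score was 0 in all 84243 peaks and was not used. Positions and distances to the TSS were used in bp as deposited by the authors, without normalization. The list holds 0 columns of other samples and 0 columns of values per sample, so depth per sample is unknown.

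Members were the rows whose detailed annotation is a repeat of class DNA, and 3 rows of class DNA? were left out. The members, gene lists and tests were chosen with earlier results of these data known. Sequence and gene models were from RefSeq GRCm38.p6. The annotation was checked against distances computed from RefSeq: 491 of the 573 agreed within 2 bp (85.7%). Lower case in that genome marked the centre base of 8.90% of members, 31 of 51 on URR1A and URR1B and 20 of 522 others, and of 4.59% of peaks on MIR and L2 repeats, so it does not mark ancient repeats and served only as an alternative. Shares have 95% Wilson intervals and differences of shares 95% Newcombe intervals, without p-values, since peaks are not replicates. In all, 39 intervals against the comparison sets and 88 between subfamilies and other members were computed, and 2 more of MER20 and MER91B against peaks outside repeats, without adjustment. A count of 0 is given with the limit that 3 counts of the total allow. Subfamilies with 20 or more members, the 10 peaks nearest to and 5 farthest from a TSS, and the members of 7 gene lists were named by rule, and other names were chosen after values were seen. The search and the intervals were tested on simulated data. Python 3.11.15, numpy 2.4.6, pandas 2.3.3 and matplotlib 3.10.9 were used.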

Additional observations from a re-analysis of the deposited data

How the results depend on the processing

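No paired analysis was possible because the peak list is pooled over all samples and holds no value per sample, and leaving out replicates or using a stricter peak score could not be run for the same reason and because the score is 0. Of the alternatives, those without MER20 or MER91B members and with 1 mismatch were chosen after seeing the data. Without MER20 the intron difference was -7.81 points from MIR and L2 repeats, 2.40 from other repeats and -5.60 from peaks outside repeats, and the first and last of these then left out 0 while the middle then included it. Keeping only the 51 members with a lower-case centre, most of them URR1A and URR1B, raised the hAT-Charlie share to 80.4%, and the intron difference from other repeats (7.67 points) and the neighbour difference from MIR and L2 repeats (-5.94 points) then included 0. Of 10 motifs, 5 differed from each set. In the lower-case members 1 differed from MIR and L2 and 2 from other repeats, without MER20 and MER91B 2 from MIR and L2, in the central 200 bp 3 from other repeats and 3 from peaks outside repeats, and with GC weighting 3 from peaks outside repeats. The CTCF share was 26.7% with 1 mismatch and 4.18% without MER20 and MER91B. Most reversals came from the lower-case members: for ETS 3.68, 12.3 and 10.7 points against MIR and L2, other repeats and peaks outside repeats, for PU.1 8.26, 7.13 and 12.0, for CTCF -1.02 against other repeats and for GATA -13.3 against peaks outside repeats. In these members the intervals for ETS, for CTCF and for PU.1 against both sets of repeats included 0. Those for PU.1 and GATA against peaks outside repeats left out 0, but their main differences had intervals with 0. The CTCF difference from other repeats was also reversed, at -0.769 points, without MER20 and MER91B, and at -3.52 points with 1 mismatch. Both of these intervals included 0. The cause was not tested, beyond the smaller set of members. The other alternatives for location, distance and neighbours changed no direction of a difference whose interval left out 0. Of the 15 differences in motif share whose intervals left out 0, 9 kept their direction and still left out 0 in the central 200 bp, 11 with GC weighting, 8 without MER20 and MER91B and 2 in the lower-case members.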
